A study of Homo sapiens with 8 samples.

Results

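LNCaP cells that had received vesicles from YAP1-depleted donor cells were compared with LNCaP cells that had received vesicles from donor cells treated with control siRNA, with 1 library per condition, 2 of the 8 libraries of the series. LNCaP is an androgen-sensitive human prostate cancer cell line. The donors were EnzaR cells, prostate cancer cells resistant to the antiandrogen enzalutamide, cultured with 10 uM of the drug and treated with 40 nM of siRNA against YAP1 or of control siRNA (siNC). Extracellular vesicles (EVs) of these donors were given to LNCaP cells for 48 h, and the recipient libraries are called EV-siYAP1 and EV-siNC here. Another LNCaP library had received vesicles of donors depleted of COUP-TFII (EV-siCII), and the remaining one, labelled a vehicle control with the vehicle not named, had received no vesicles (control). The LNCaP medium held no enzalutamide, so that recipients and donors differ in the drug as well as in the line. The donor cells themselves were sequenced as siYAP1 and siNC, with 2 libraries each. LNCaP and EnzaR are cultured lines, and the labels do not say whether replicates were separate cultures, how many vesicles were given, or how much YAP1 the vesicles carried.

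YAP1 is a transcriptional co-activator that the Hippo kinases STK3, STK4, LATS1 and LATS2 keep out of the nucleus and that acts through TEAD transcription factors. Extracellular vesicles are membrane particles that carry protein, RNA and lipid from one cell to another. Hypoxia-inducible factors (HIFs) bind a short core motif in DNA and drive glucose uptake, glycolysis, angiogenesis and mitophagy, and prolyl hydroxylases and VHL remove the HIF alpha subunits when oxygen is present. The tumour suppressor p53 drives the cell cycle inhibitor CDKN1A and a set of repair and death genes.

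The question was what the transcriptome of recipient cells shows when YAP1 had been depleted in the donors. Total counts were 17543894 in EV-siYAP1, 17547773 in EV-siCII, 17964615 in EV-siNC and 17657484 in control, so that 3 counts corresponded to 0.167 to 0.171 CPM, read counts scaled to a common library size. With 1 library per condition there was no replicate check and no test, and every ratio compares these libraries. Values are CPM scaled by the trimmed mean of M-values (TMM), ratios are log2 of EV-siYAP1 over EV-siNC, and brackets hold exact binomial 95% intervals that cover counting error only. A floor of 10 CPM, as the mean of both libraries, was passed by 8943 genes.

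YAP1, the targeted gene, was at 5.756 and 7.088 CPM in siYAP1 donors and 57.38 and 47.55 CPM in siNC donors (log2 fold change -3.02, SE 0.154, edgeR quasi-likelihood adjusted p = 2.073e-10, n = 2 each). All 12 luminal prostate markers passed the floor, among them KRT8 at 1069 CPM in EV-siYAP1 and 1144 CPM in EV-siNC and the homeobox gene HOXB13 at 562.1 and 521.8 CPM. KLK3, which encodes the secreted antigen PSA for which LNCaP is known, was at only 45.56 CPM in EV-siYAP1 and 42.53 CPM in EV-siNC, while the donor libraries, scaled among themselves, held 1116 to 1255 CPM. The related kallikrein gene KLK2 was at 15.02 CPM in EV-siYAP1 and 17.2 CPM in EV-siNC, and VIM, a mesenchymal filament gene that LNCaP is known to lack, at 271.0 and 291.7 CPM. Low KLK3 and KLK2 and high VIM go against the LNCaP label in all 4 recipient libraries. KLK3 and KLK2 are themselves among the 12 luminal markers, so that this set is split, with KRT8 and HOXB13 fitting the label. The identity of the line was not tested, LNCaP stands below for the libraries so labelled, and every recipient value carries this limit. Of 8 basal markers 5 were at 0 in both libraries, among them KRT5, KRT6A and TP63, and 1 passed the floor. The basal markers summed to 51.526 CPM in EV-siYAP1 and 48.411 CPM in EV-siNC, and the blood markers to 3.431 and 3.297 CPM. Of 10 matched fibroblast and endothelial markers 3 passed the floor, COL1A1 and VWF among them, while DCN, LUM, COL1A2 and KDR were at 0. COL1A1, a fibrillar collagen gene, was at 113.9 CPM in EV-siYAP1 and 101.2 CPM in EV-siNC. In bulk RNA, fewer cells of a type and less RNA per cell cannot be told apart.

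The differences between both libraries were small. Of the 8943 genes, 20 (0.224%) were more than 1.5-fold higher and 31 (0.347%) more than 1.5-fold lower in EV-siYAP1. Past the smaller fold used below, a log2 ratio of 0.32 in size, there were 317 (3.54%) in either direction, and past 2-fold 0 higher and 4 lower (0.0447%). Ratios above 0 made up 51.0% of genes. The SD of the log2 ratios was 0.177, against 0.191 between the 2 siYAP1 libraries and 0.188 between the 2 siNC libraries of the donors. Between those donor replicates 39 and 49 genes were 1.5-fold higher in replicate 2, and 8 and 10 were 1.5-fold lower. The spread was thus no larger than that between replicates of the donor line. Counting intervals left out 0 for 19.2% of genes above and 18.0% below it, so that an interval clear of 0 is common too. GC content had a Spearman rho of -0.042 with the log2 ratio across genes, and exonic length 0.008.

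**Figure D1:**
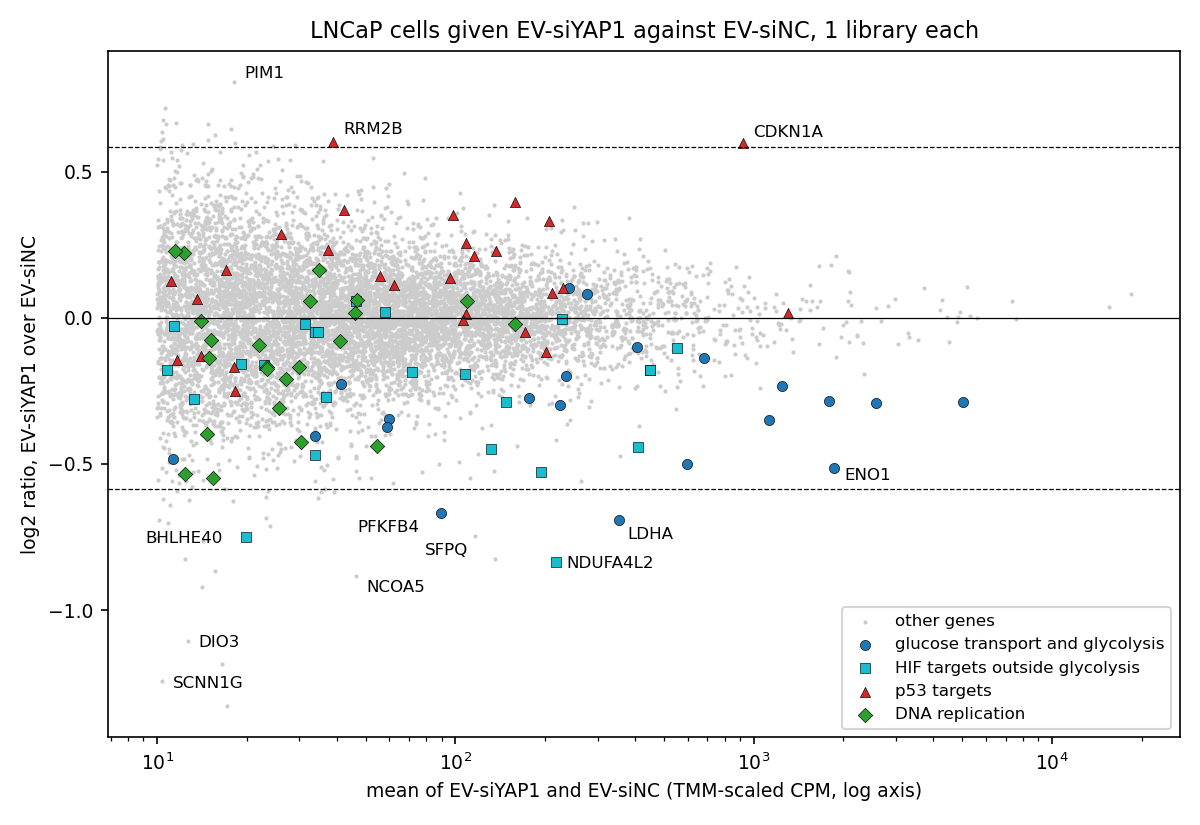
Each point is a gene with a mean of at least 10 CPM. The x axis is the mean TMM-scaled CPM of EV-siYAP1 and EV-siNC on a log scale, the y axis the log2 ratio of EV-siYAP1 over EV-siNC, and dashed lines mark 1.5-fold. Most glycolysis genes lie below 0 down to LDHA at -0.69, and CDKN1A lies at 0.60.

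Genes of glucose uptake and glycolysis were lower in EV-siYAP1 almost throughout. Of 22 genes on that list 21 passed the floor, 19 of them below 0 and 2 above, with a median log2 ratio of -0.29, while the median of all genes was 0.0048 and 49.0% of them lay below 0. Of the 21, 9 were past the smaller fold lower and none past the smaller fold higher, against 3.54% of all genes in each direction. This list and those below were chosen with earlier results of these data known, so that such shares describe the lists and test nothing. Over the same 21 genes, the median log2 ratio between the donor replicates was 0.003 in siYAP1 and 0.057 in siNC. LDHA, which turns pyruvate into lactate, had the value farthest below 0, at 270.0 CPM in EV-siYAP1 and 436.6 CPM in EV-siNC (log2 ratio -0.69, interval -0.75 to -0.64).

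PFKFB4, which sets the level of the phosphofructokinase activator fructose 2,6-bisphosphate, was at 68.85 CPM in EV-siYAP1 and 109.6 CPM in EV-siNC (log2 ratio -0.67, interval -0.77 to -0.57). The enolase gene ENO1 was at 1535 and 2191 CPM, and PGK1, phosphoglycerate kinase, at 493.9 and 698.5 CPM, in EV-siYAP1 and EV-siNC in that order. GAPDH, the most abundant per exonic length at 1545.93 FPKM in EV-siYAP1 and 1885.2 FPKM in EV-siNC, had a log2 ratio of -0.29 (interval -0.30 to -0.27). Ratios below 0 ran along the pathway, from the glucose transporter SLC2A1 (-0.35) through HK2 (-0.40), GPI (-0.35), ALDOA (-0.29), TPI1 (-0.23) and PKM (-0.28) to the lactate exporter SLC16A3 (-0.38), whose gene overlaps CSNK1D on the other strand. HK1 and PFKM, the isoforms of hexokinase and phosphofructokinase above 0, had ratios of 0.08 and 0.10. SLC2A3 had 1 count in EV-siYAP1 and 4 in EV-siNC.

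HIF targets outside glycolysis leaned the same way with a smaller median. Of 30, 24 passed the floor, 22 of them below 0, with a median of -0.18. Past the smaller fold 6 were lower and none higher, against 3.54% of all genes in each direction. NDUFA4L2, a hypoxia-induced mitochondrial protein, was at 156.5 CPM in EV-siYAP1 and 279.6 CPM in EV-siNC (log2 ratio -0.84, interval -0.90 to -0.77), and SHMT2, which overlaps it on the other strand, had 15240 counts in EV-siYAP1 and 15518 in EV-siNC. No label or header says whether counting used strand, and without it the reads of overlapping genes cannot be told apart. BHLHE40, a transcriptional repressor, was at 14.74 CPM in EV-siYAP1 and 24.84 CPM in EV-siNC (log2 ratio -0.75, interval -0.98 to -0.53). The angiogenic factor gene VEGFA had 158.3 CPM in EV-siYAP1 and 228.5 CPM in EV-siNC. The mitophagy receptor gene BNIP3, the collagen prolyl hydroxylase gene P4HA1 and NDRG1 had log2 ratios of -0.45, -0.47 and -0.44.

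Not every HIF target followed. HILPDA, ANKRD37, EGLN3 and KDM4B lay between -0.047 and -0.005, each with an interval that spanned 0, and CA12 and MXI1 lay at 0.02 and 0.06. Below the floor, PLOD2 had 90 counts in EV-siYAP1 and 161 in EV-siNC, GBE1 132 and 212, PPFIA4 84 and 127, CA9 11 and 20, ADM 16 and 16, and ANGPTL4 14 and 12. The HIF subunits and the enzymes that remove them had 8 of 10 measured members below 0, a smaller median of -0.06 and none past the smaller fold. Of the 10 intervals 3 were below 0 and none above, against 18.0% and 19.2% of all genes. HIF1A was at 43.09 CPM in EV-siYAP1 and 44.89 CPM in EV-siNC (interval -0.20 to 0.09), ARNT at 76.67 and 77.75 CPM, and VHL, which marks HIF alpha for removal, at 99.23 and 107.9 CPM (interval -0.21 to -0.03). The tricarboxylic acid cycle and pyruvate entry list had 12 of 16 members above 0 with a median of 0.03. PDK1, a kinase that blocks pyruvate entry and is counted in the glycolysis list, was at 9.45 CPM in EV-siYAP1 and 13.24 CPM in EV-siNC. Its relatives PDK2, with a higher mean of 73.43 CPM over both libraries, and PDK3 had log2 ratios of 0.068 and 0.244.

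**Figure D2:**
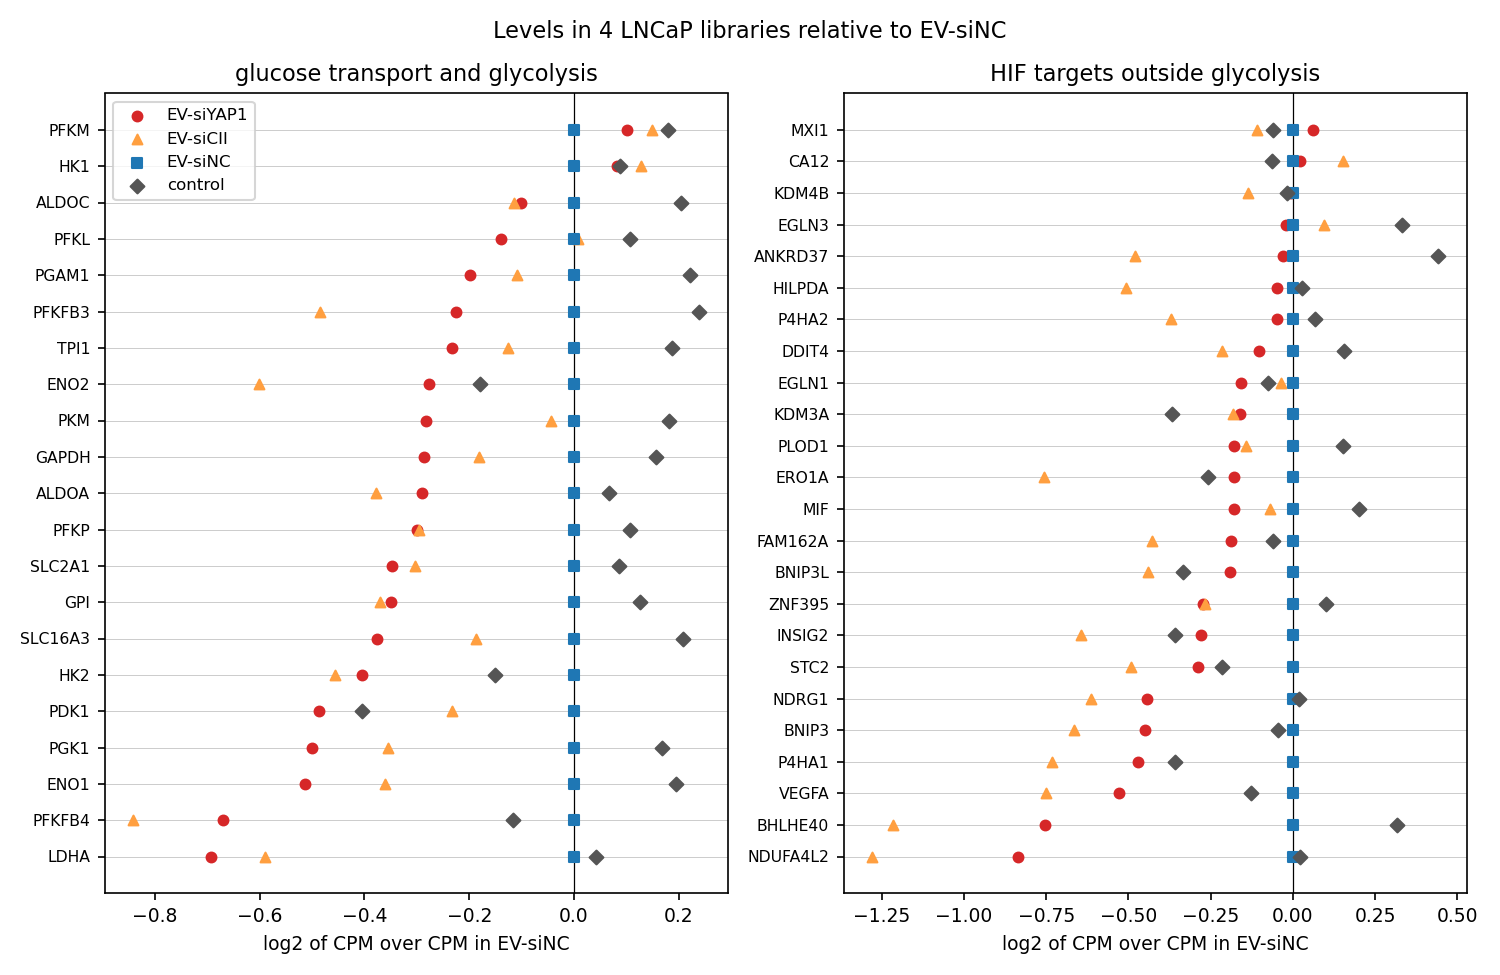
Log2 of each library's CPM over the CPM in EV-siNC for members past the floor, with circles for EV-siYAP1, triangles for EV-siCII, squares for EV-siNC (0 by definition) and diamonds for control. Circles lie left of 0 for 19 of 21 glycolysis genes and 22 of 24 other HIF targets, and for many genes the triangles lie left of 0 too.

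The other LNCaP libraries place these levels. LDHA was at 270.0 CPM in EV-siYAP1, 290.0 in EV-siCII, 436.6 in EV-siNC and 449.3 in control, so that both libraries from depleted donors lay low and the others high. NDUFA4L2 had 156.5, 115.2, 279.6 and 283.7 CPM in the same order. EV-siYAP1 was the lowest of the 4 libraries for 12 of the 21 glycolysis genes, and EV-siCII for 7. For HIF targets outside glycolysis this turned round, with EV-siYAP1 lowest for 5 of 24 and EV-siCII for 17. The medians of EV-siCII over EV-siNC, which share the EV-siNC library with the comparison above, were -0.296 for glycolysis and -0.434 for the other HIF targets. Those of EV-siNC over control were -0.126 for glycolysis and 0.031 for the other HIF targets. A glycolysis step below 0 was thus seen with control-siRNA vesicles too. Across genes, the ratio of EV-siNC over control went with GC content (Spearman rho -0.549), whose part was not tested. P4HA1 was high in EV-siNC and not in control, at 28.41, 23.73, 39.4 and 30.71 CPM in the same order, and with 1 library each a high EV-siNC and a low EV-siYAP1 cannot be told apart. Against control, the GC content of genes had a Spearman rho of -0.472 with the log2 ratio of EV-siYAP1, against -0.042 for the ratio over EV-siNC, and its part in the levels was not tested.

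The promoters of these genes were read from RefSeq (GRCh38.p14, 250 bases before to 50 after the start site), to show where HIF core motifs stand in the genes that differed most. The 4 members farthest below 0 with an entry are printed on the gene's strand, and ALDOC, a glycolysis gene at -0.10, as a contrast. Capitals mark ACGTG or GCGTG on either strand, and adjacent or overlapping matches run together.
BHLHE40 (chr3:4979187-4979486, plus strand): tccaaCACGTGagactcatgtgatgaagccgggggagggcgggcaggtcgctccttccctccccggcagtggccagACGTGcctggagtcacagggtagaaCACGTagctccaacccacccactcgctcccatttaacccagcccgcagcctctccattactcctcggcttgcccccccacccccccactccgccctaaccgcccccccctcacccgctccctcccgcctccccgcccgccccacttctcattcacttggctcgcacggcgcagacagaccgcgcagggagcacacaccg
LDHA (chr11:18394313-18394612, plus strand): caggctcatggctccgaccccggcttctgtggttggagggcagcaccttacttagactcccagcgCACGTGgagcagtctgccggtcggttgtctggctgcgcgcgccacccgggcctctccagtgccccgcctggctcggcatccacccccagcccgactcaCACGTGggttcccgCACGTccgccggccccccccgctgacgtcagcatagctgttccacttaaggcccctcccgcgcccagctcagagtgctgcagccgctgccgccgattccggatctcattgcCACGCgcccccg
PFKFB4 (chr3:48556754-48557053, minus strand): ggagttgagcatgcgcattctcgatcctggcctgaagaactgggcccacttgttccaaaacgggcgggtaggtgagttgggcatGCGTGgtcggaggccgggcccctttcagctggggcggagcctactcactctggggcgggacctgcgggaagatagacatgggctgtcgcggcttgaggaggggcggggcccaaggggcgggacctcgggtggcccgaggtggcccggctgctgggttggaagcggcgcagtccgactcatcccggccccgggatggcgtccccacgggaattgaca
ENO1 (chr1:8878637-8878936, minus strand): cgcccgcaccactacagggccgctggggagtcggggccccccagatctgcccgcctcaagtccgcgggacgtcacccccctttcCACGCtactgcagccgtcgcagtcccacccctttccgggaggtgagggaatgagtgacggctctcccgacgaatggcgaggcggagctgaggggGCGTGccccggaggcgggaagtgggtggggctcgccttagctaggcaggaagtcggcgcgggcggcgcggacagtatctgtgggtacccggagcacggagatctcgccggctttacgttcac
ALDOC (chr17:28576846-28577145, minus strand): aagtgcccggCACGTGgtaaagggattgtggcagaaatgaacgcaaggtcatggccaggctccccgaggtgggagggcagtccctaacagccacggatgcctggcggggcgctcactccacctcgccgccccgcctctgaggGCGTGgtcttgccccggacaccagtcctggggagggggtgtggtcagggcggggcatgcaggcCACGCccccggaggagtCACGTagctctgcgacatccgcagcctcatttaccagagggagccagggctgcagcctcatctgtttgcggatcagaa

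LDHA held 6 matches and BHLHE40 4, while PFKFB4 held 1 and ENO1 2, and ALDOC, also lower but by less, held 5. CACGTG reads the same on both strands and counts once on each, so that LDHA, BHLHE40 and ALDOC hold fewer separate sites than matches. ACGTG was present in 19 of 39 promoters of glycolysis and HIF target genes (48.7%), in 27.8% of 7126 promoters of genes past the floor and in 21.4% of all 35116. Members without a promoter entry, NDUFA4L2 and VEGFA among them, are not in the 39, so that the medians and ranges below leave them out. ACGTG or GCGTG was present in 29 of the 39 (74.4%), in 65.6% of promoters of genes past the floor and in 48.4% of all. Members with ACGTG had a median log2 ratio of -0.278 (n = 19) and members without it -0.211 (n = 20), with overlapping ranges of -0.749 to -0.005 and -0.669 to 0.102. A match is a description of letters and not of binding.

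Targets of p53 lay more often above 0 than below it, and a few were clearly apart. Of 32, 28 passed the floor, 21 of them above 0 and 7 below, with a median log2 ratio of 0.131. Of the 28 intervals 15 were above 0 and 2 below, against 19.2% and 18.0% of all genes. Past the smaller fold 6 of the 28 were higher and none lower, against 3.54% of all genes in each direction. Over the same genes the donor replicates had medians of 0.061 in siYAP1 and -0.015 in siNC. CDKN1A, the inhibitor of cyclin-dependent kinases, stood at 1107 CPM in EV-siYAP1, 620.9 CPM in EV-siCII, 732.1 CPM in EV-siNC and 628.2 CPM in the control library (log2 ratio 0.60, interval 0.57 to 0.63). The EV-siYAP1 library stood above the other LNCaP libraries, which lay between 620.9 and 732.1 CPM. RRM2B, the p53-inducible ribonucleotide reductase subunit, was at 46.97, 26.39, 30.94 and 20.76 CPM in the same order (log2 ratio 0.60, interval 0.45 to 0.76).

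Further members above 0 were FDXR, a mitochondrial reductase (0.40), GADD45A, a stress-induced growth arrest gene (0.37), the BH3-only death gene BBC3 (0.35), the antiproliferative gene BTG2 (0.33) and ZMAT3 (0.29). GDF15, a secreted stress factor, was at 1314 CPM in EV-siYAP1 and 1299 CPM in EV-siNC (log2 ratio 0.02, interval -0.01 to 0.04). The p53 inhibitor gene MDM2 was at 64.58 CPM in EV-siYAP1 and 59.73 CPM in EV-siNC (interval -0.01 to 0.23), and TRIAP1 and TP53INP1 lay at -0.25 and -0.12. EV-siYAP1 was the highest of the 4 libraries for 20 of the 28 members. The median of EV-siCII over EV-siNC was -0.158, on the other side of 0. The median of EV-siNC over control was 0.158, larger than that of EV-siYAP1 over EV-siNC, so that a step above 0 was seen with control-siRNA vesicles too. The ratio of EV-siNC over control went with GC content (Spearman rho -0.549), whose part was not tested. Below the floor, TIGAR had 138 counts in EV-siYAP1 and 103 in EV-siNC, FAS 35 and 32, and EDA2R 1 and 0.

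Some DNA replication genes were lower in EV-siYAP1, and others were not. Of 35 matched, 23 passed the floor, 16 of them below 0, with a median of -0.094. Of the 23 intervals 7 were below 0 and 1 above, against 18.0% and 19.2% of all genes. Past the smaller fold 5 of the 23 were lower and none higher, against 3.54% of all genes in each direction. Over the same genes the donor replicates had medians of -0.045 in siYAP1 and 0.023 in siNC. MCM4, a subunit of the replicative helicase, was at 10.13 CPM in EV-siYAP1, 16.99 in EV-siCII, 14.73 in EV-siNC and 17.14 in the control library (log2 ratio -0.54, interval -0.82 to -0.26). TK1, thymidine kinase, was at 25.99, 47.12, 34.89 and 51.01 CPM in the same order, and the helicase subunit gene MCM2, which overlaps TPRA1, at 46.29, 73.74, 62.7 and 76.1 CPM. In these 3 genes EV-siYAP1 was the lowest library and EV-siNC lay between it and the remaining pair. FEN1, the flap endonuclease gene, had a log2 ratio of -0.55 but overlaps the more abundant FADS2 and TMEM258, and RFC2, a clamp loader subunit, had -0.40.

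Other replication genes did not follow. PCNA, the sliding clamp, was at 36.79 CPM in EV-siYAP1 and 32.86 CPM in EV-siNC (log2 ratio 0.16, interval 0.00 to 0.33), MCM6 lay at 0.22 with an interval that spanned 0, and MCM7 at -0.02. EV-siYAP1 was the lowest of the 4 libraries for 13 of the 23. The median of the 23 was -0.217 for EV-siNC over control, larger in size than for EV-siYAP1 over EV-siNC, and 0.102 for EV-siCII over EV-siNC. Of 30 mitotic genes only 3 passed the floor, and among the rest MKI67 had 103 counts in EV-siYAP1 and 157 in EV-siNC, AURKB 69 and 108, and TOP2A 55 and 45. In the G1 list the median was -0.039, with MYC at 212.4 CPM in EV-siYAP1 and 270.7 CPM in EV-siNC (interval -0.41 to -0.29), E2F3 at -0.33 and CCNE1 at -0.29. Of its 12 measured members 5 lay above 0, among them the inhibitor gene CDKN2D at 17.44 CPM in EV-siYAP1 and 13.9 CPM in EV-siNC (log2 ratio 0.33), RB1, which overlaps LPAR6, at 0.32, and RBL2 at 0.16. E2F1, below the floor, had 109 counts in EV-siYAP1 and 169 in EV-siNC, and CCND1 was at 209.0 and 218.4 CPM.

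**Figure D3:**
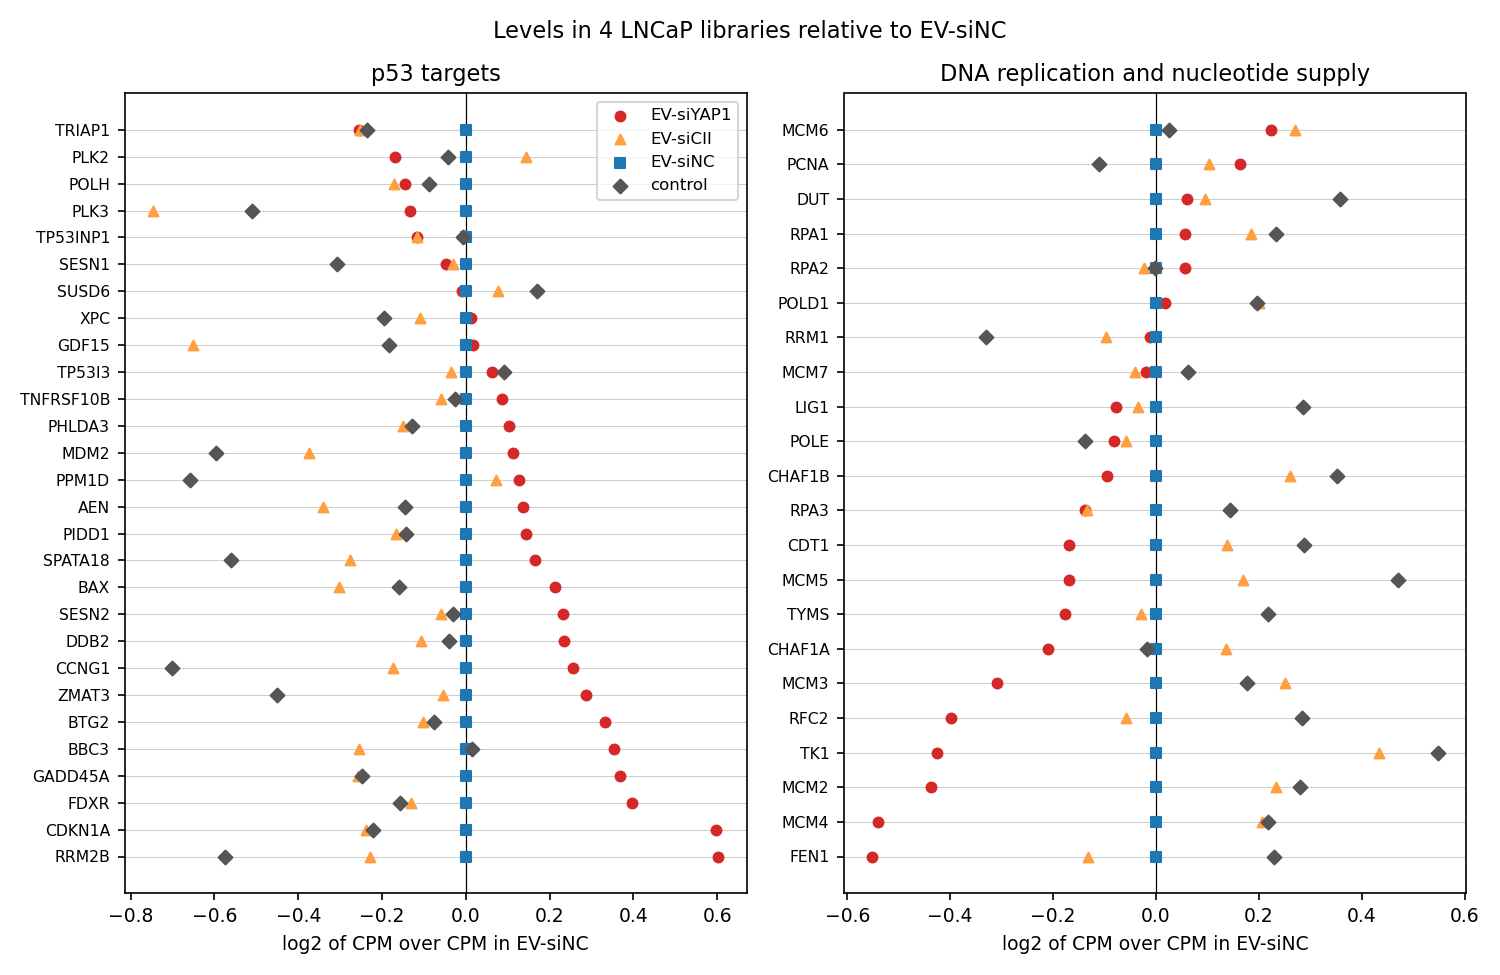
Log2 of each library's CPM over the CPM in EV-siNC for p53 targets and DNA replication genes past the floor that are reported here, with circles for EV-siYAP1, triangles for EV-siCII, squares for EV-siNC (0 by definition) and diamonds for control. CDKN1A and RRM2B lie farthest right in EV-siYAP1, and in EV-siYAP1 MCM4, MCM2 and TK1 lie left of every other library.

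YAP1 itself differed little in the recipients, and so did most of its measured targets. YAP1 was at 64.29 CPM in EV-siYAP1, 68.76 in EV-siCII, 69.29 in EV-siNC and 61.12 in the control library (log2 ratio -0.11, interval -0.23 to 0.01). Its paralog WWTR1, also called TAZ, had 2 counts in each of the 4 libraries. Only 9 of 22 YAP and TAZ targets passed the floor, with a median of -0.003, and the canonical targets CCN2 and ANKRD1 had 0 counts in both libraries. CCN1 had 152 counts in EV-siYAP1 and 135 in EV-siNC, AMOTL2 was at 10.74 and 10.55 CPM and AJUBA at 73.97 and 74.13 CPM. Past the smaller fold 2 of the 9 were higher and none lower, against 3.54% of all genes in each direction. These were LATS2 and GADD45A, at 0.34 and 0.37, which are also a Hippo kinase and a p53 target.

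Among Hippo components, 16 of 22 lay above 0 with a median of 0.102. Past the smaller fold 4 were higher and none lower, against 3.54% of all genes in each direction. The 4 were the kinase genes STK3 (0.45) and LATS2 (0.34), the kinase adaptor gene MOB1A (0.42) and the cadherin gene DCHS1 (0.50). They lay between 13.33 and 19.74 CPM in EV-siYAP1, and the median between the siYAP1 donor replicates over the Hippo list, 0.175, was larger. The TEAD genes were split, with TEAD1 and TEAD3 at 0.14 and 0.22 and TEAD2 and TEAD4 at -0.23 and -0.21. COUP-TFII, encoded by NR2F2, was at 53.27 CPM in EV-siYAP1 and 50.5 CPM in EV-siNC.

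The other lists had medians between -0.242 and 0.166. Chaperones and isomerases of the endoplasmic reticulum had 17 of 21 members above 0 and a median of 0.116, larger in size than that of the replication list. Of the 21 intervals 14 were above 0 and 1 below, against 19.2% and 18.0% of all genes. The chaperone genes HSP90B1 and HSPA5 lay at 0.27 and 0.17 and the isomerase gene PDIA4 at 0.23. No member of the list was past the smaller fold higher and 1 was lower, EDEM1 at -0.331, the ratio largest in size. The median of the list for EV-siCII over EV-siNC was 0.119. Cholesterol synthesis (-0.021), fatty acid synthesis (0.035), nuclear oxidative phosphorylation (0.021), ribosomal proteins (-0.031), the integrated stress response (-0.024), androgen-responsive genes (-0.020), NRF2 targets (0.018) and epithelial-mesenchymal genes (-0.001) had the medians in brackets. Sodium channel and thyroid hormone genes lay at 0.008 and 0.006, and the 6 measured genes of steroid conjugation and androgen synthesis at -0.242. Of these 6 intervals 4 were below 0 and 1 above, against 18.0% and 19.2% of all genes. Mitochondrially encoded mRNAs lay at 0.081, vesicle biogenesis genes at 0.058, interferon genes at 0.093, iron genes at -0.040 and immediate early genes at -0.058. Metallothionein and zinc genes lay at -0.013, though MT2A, a metallothionein with near-identical relatives, was at 12.99 CPM in EV-siYAP1, 36.48 in EV-siCII, 17.2 in EV-siNC and 79.2 in control.

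**Figure D4:**
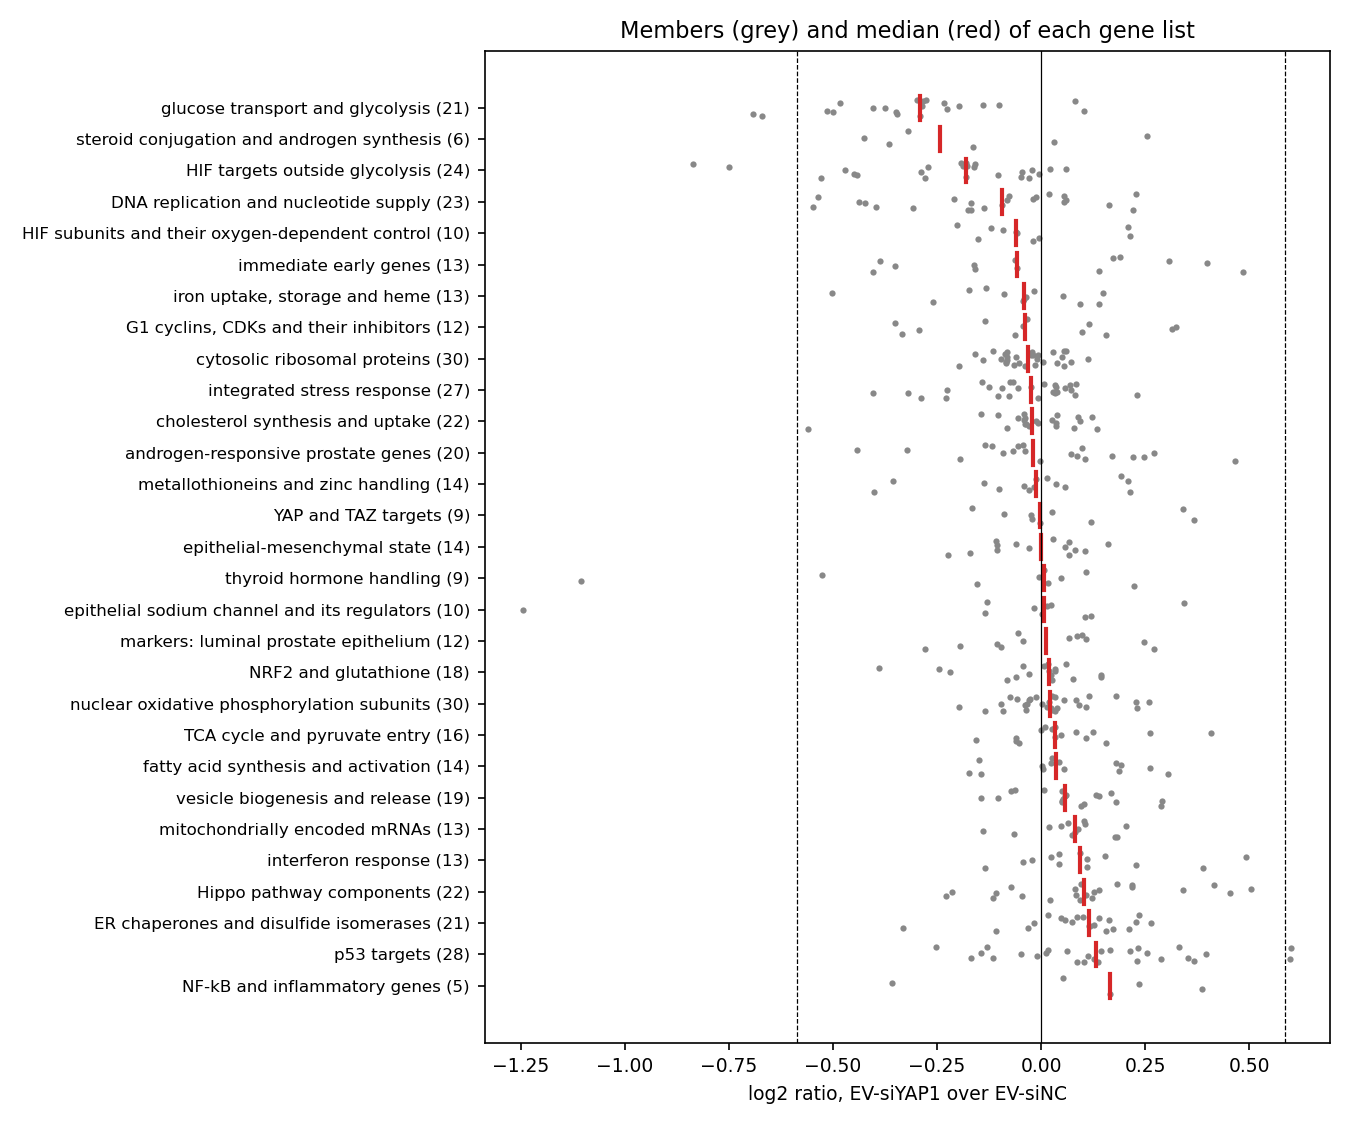
Grey points are members past the floor (number in brackets) of each list with at least 5 such members, red bars the median log2 ratio of EV-siYAP1 over EV-siNC, and dashed lines 1.5-fold. The glycolysis median at -0.29 lies lowest, the NF-kB median, from 5 genes, at 0.166 and the p53 median at 0.131 highest, and SCNN1G and DIO3 stand apart from their lists.

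Single members of those lists stood out. CYP51A1, the sterol demethylase gene, was at 9.056 CPM in EV-siYAP1 and 13.41 CPM in EV-siNC (interval -0.86 to -0.27). TFRC, the transferrin receptor gene, was at 30.77 CPM in EV-siYAP1 and 43.63 CPM in EV-siNC (interval -0.66 to -0.35). The glucuronosyltransferase genes UGT2B15 and UGT2B17, which inactivate androgens, lay at -0.43 and -0.37, but they are near-identical copies and uncertain. NFKB2 lay at 0.39 and its paralog NFKB1 at -0.36, and in the interferon list USP18 lay at 0.49 and TAP1 at 0.39. Of the immediate early genes NR4A1 and IER5 lay at 0.48 and 0.40, against ATF3 at -0.40 and DUSP1 at -0.39.

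Outside the lists, PIM1, a serine/threonine kinase that promotes survival (chromosome 6, 37137979 to 37143202, hg19), had the highest ratio, at 23.06 CPM in EV-siYAP1, 16.14 in EV-siCII, 13.13 in EV-siNC and 15.62 in the control library (log2 ratio 0.81, interval 0.58 to 1.05). NDUFA5, a subunit of respiratory complex I, was at 18.17 CPM in EV-siYAP1 and 11.43 CPM in EV-siNC, PPM1K, the phosphatase of branched-chain amino acid breakdown, at 21.66 and 13.79 CPM, and EPHA2, an ephrin receptor, at 29.31 and 19.45 CPM. The other genes among the 20 highest were CCNJL, ZNF680, ZNF607, AFTPH, TNFAIP8, LARP4, PERM1, TENT2, GUCY1B1, BVES, SUSD4, NEURL1B, SRRM3 and TRAPPC13, between 0.59 and 0.72. Their counts in EV-siYAP1 lay between 218 and 621. PERM1 and TRAPPC13 overlap other genes.

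The lowest ratio was that of SMN1 (-1.33), at 9.731 CPM in EV-siYAP1, 6.287 in EV-siCII, 24.62 in EV-siNC and 4.913 in control, which is uncertain because SMN2 is a near-identical copy. SCNN1G, the gamma subunit of the epithelial sodium channel (chromosome 16, 23194036 to 23228204, hg19), had 6.131, 4.135, 14.67 and 11.87 CPM in that order (log2 ratio -1.24, interval -1.59 to -0.93), while the alpha subunit gene SCNN1A stayed at 145.5 CPM in EV-siYAP1 and 145.2 CPM in EV-siNC. SCNN1B, the beta subunit gene, had 38 counts in EV-siYAP1 and 57 in EV-siNC. DIO3, the deiodinase that inactivates thyroid hormone (chromosome 14, 102027688 to 102029789, hg19), had 7.988, 7.986, 17.31 and 19.83 CPM in that order (log2 ratio -1.10, interval -1.41 to -0.82), and DIO1, a deiodinase that can activate it, had -0.53. In SCNN1G and DIO3 EV-siYAP1 and EV-siCII lay low and EV-siNC and control high.

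SFPQ, a paraspeckle and splicing factor gene, was at 86.8 CPM in EV-siYAP1, 113.0 CPM in EV-siCII, 145.6 CPM in EV-siNC and 163.3 CPM in control (interval of the log2 ratio -0.84 to -0.66). The receptor coregulator gene NCOA5 was at 32.57, 48.99, 60.12 and 65.34 CPM in the same order, so that in both genes EV-siYAP1 was lowest and control highest. MARS2, GNL3L, IFITM2, NOS3, UFSP1, PPP1R3E, ZNF202, RDH10, ZNF789 and the histone gene H4C8, whose relatives are near-identical, lay between -0.62 and -0.86. Of these, PPP1R3E overlaps BCL2L2, RDH10 the more abundant RPL7 and ZNF789 overlaps ZNF394, each on the other strand. PPP1R3E, with 137 counts in EV-siYAP1 and 228 in EV-siNC, also overlaps a gene without a name on the same strand. That gene had 594 and 629 counts. CCDC81 had 0 counts in EV-siYAP1 and 18 in EV-siNC, and the pseudogene TRMT112P6 0 and 15. In the other direction, an antisense gene without a name (ENSG00000214770) had 15 counts in EV-siYAP1 and 0 in EV-siNC.

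The donor cells share no library with the recipients and were compared with edgeR's quasi-likelihood test. At an adjusted p under 0.05, 872 genes (5.83%) were higher and 930 (6.22%) lower of 14948. Without replicate 1 of siYAP1, 15 genes were called higher and 11 lower, and 2434 had an unadjusted p under 0.05. Donor fold changes also went with GC content, with a Spearman rho of 0.585 across 8784 genes, whose part in the calls was not tested.

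Of the 30 tested genes past 1.5-fold lower in EV-siYAP1, 7 were higher in siYAP1 donors (23.3%, against 8.99% of all 8883 genes past the floor) and 1 lower (3.33%, against 8.08%). Of 19 past 1.5-fold higher in recipients, 1 was higher and 3 were lower in donors. At the smaller fold, 44 of 310 genes higher in recipients were lower in donors (14.2%) and 11 higher (3.55%), while of 312 lower in recipients 27 were higher (8.65%) and 20 lower (6.41%). Across genes, which are not independent replicates, the recipient log2 ratio and the donor fold change had r = -0.112 and rho = -0.107. Without replicate 1 of siYAP1 the 7 higher donor calls became 1 and the 3 lower ones 0.

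DIO3 was at 39.28 and 37.69 CPM in siYAP1 donors and 18.55 and 19.46 CPM in siNC donors (log2 fold change 1.02, SE 0.125, edgeR adjusted p = 0.0001125), opposite to the recipients and called with each donor library left out in turn. RRM2B was at 12.97 and 13.73 CPM in siYAP1 donors and 25.82 and 22.57 CPM in siNC donors (log2 fold change -0.86, edgeR adjusted p = 0.002019), also opposite. CDKN1A was higher on both sides, at 635.5 and 633.5 CPM in siYAP1 donors and 488.5 and 487.8 CPM in siNC donors (log2 fold change 0.38, edgeR adjusted p = 0.01596). Without replicate 1 of siYAP1 the adjusted p was 0.09846 for RRM2B and 0.1441 for CDKN1A in the edgeR test. CDKN1A also lost its call without replicate 1 of siNC (0.1285), without replicate 2 of siNC (0.1175) and with a block on replicate number (0.06133). Of 21 glycolysis genes tested in donors 0 were higher and 2 lower, against 8.99% and 8.08% of all genes past the floor. The 2 were PGAM1 and SLC16A3, and the call of SLC16A3 was lost without either siYAP1 library or replicate 2 of siNC. LDHA, ENO1 and NDUFA4L2 were not called, with edgeR adjusted p of 0.1043, 0.197 and 0.7887. NDUFA4L2 was at only 1.897 to 2.783 CPM in the donor libraries, so that its missing call says little.

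**Figure D5:**
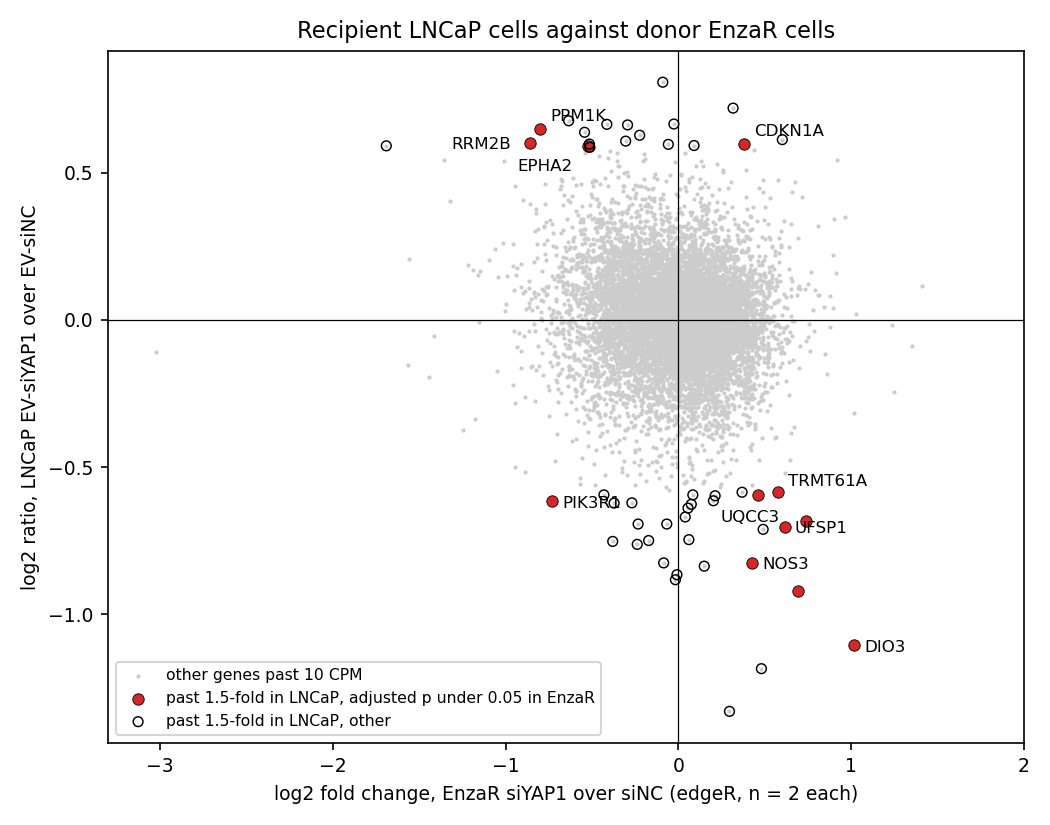
Each point is a gene past 10 CPM in the recipients. The x axis is the log2 fold change of siYAP1 over siNC donors (edgeR, n = 2 each) and the y axis the log2 ratio of EV-siYAP1 over EV-siNC recipients. Filled red points passed 1.5-fold in recipients and an adjusted p under 0.05 in donors, and 7 of them, DIO3 among them, lie at the lower right.

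Reads of transcripts that mark the donor line were few in the recipients. The 8 genes with at least 5 CPM in both siNC donor libraries and at most 2 counts in control summed to 23 counts in EV-siYAP1, 23 in EV-siCII, 22 in EV-siNC and 5 in control, where the rule itself kept them low. The ratio of EV-siYAP1 to EV-siNC was 1.07 (interval 0.57 to 2.01). GLYATL2 gave 8 of the 23 counts in EV-siYAP1 and 8 of the 22 in EV-siNC.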

How the data were processed

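RNA-seq read counts per gene were deposited by the authors together with FPKM and exonic lengths. The submitters' processing notes list HISAT2 2.0.1, HTSeq 0.6.1, DESeq2 and cutadapt 1.9.1, with the hg19 build, and give no strand setting or annotation release. FPKM as deposited were used only to compare levels between genes. From the counts, TMM-scaled CPM over the 4 LNCaP libraries (edgeR 4.0.16, R 4.3.3), log2 ratios with a prior count of 2 and exact binomial 95% intervals were computed for genes with a mean of at least 10 CPM. With 1 library per condition no test was made. The donors were tested with edgeR's quasi-likelihood test (2 against 2, Benjamini-Hochberg 0.05). Between donor groups, same-numbered libraries did not deviate together (correlation -0.0798). Named genes are the 20 highest and 20 lowest ratios and members of the lists, farthest from 0 first, plus defining genes. Members and 34 lists (714 of 720 entries matched) were chosen with earlier results of these data known. Scaling, prior count, floor, GC and length correction, donor filters, replicate block, left-out donor libraries and DESeq2 1.42.0 were tried as alternatives. Nothing in the labels makes the donor replicates separate cultures, and their p-values may measure technical spread alone. Some genes that the counts include are not reported here.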

Additional observations from a re-analysis of the deposited data

How the results depend on the processing

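The number of genes past 1.5-fold in EV-siYAP1 depended on the floor, with 67 higher and 65 lower at a mean of 5 CPM, 4 and 14 at 20 CPM, and 3781 and 2868 with no floor, where single counts pass the fold. After a GC and length correction 12 genes were higher. List medians kept their place in 277 of 278 comparisons with an alternative; the fibroblast and endothelium median was 0.38 with no floor. Ratios of named genes kept theirs in 1130, and 2 moved. The median ratio of all genes was at most 0.0113 in size under these settings. In the donors, the replicate block gave 564 higher and 846 lower genes, DESeq2 889 and 453, and leaving out 1 library 15 to 940 higher and 11 to 829 lower. Among genes past 1.5-fold higher in recipients, donor calls were 0 higher with the replicate block, 0 to 1 higher and 0 to 4 lower with 1 library left out, and 5 lower with no filter. Among those past 1.5-fold lower, leaving out 1 library gave 1 to 7 higher and 0 to 2 lower. The donor fold change of VIM, near 0 counts there, was 0.341 with all libraries and ran from -6.882 to 1.275 with 1 left out. The cause of these shifts was not tested. No paired analysis was possible for the recipients because each condition is 1 library.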

Other observations

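Some genes differed widely between the libraries labelled LNCaP and those of the donors, each scaled among their own, and the first of them go against that label. VIM, an intermediate filament gene of mesenchymal cells, was at 271.0 CPM in EV-siYAP1 and 291.7 CPM in EV-siNC, and at 0.0 to 2.025 CPM in the donors. KLK2, an androgen-responsive kallikrein gene, was at 15.02 CPM in EV-siYAP1 and 17.2 CPM in EV-siNC, and at 192.5 to 239.0 CPM in the donors. MKI67, a proliferation marker, was at 5.794 CPM in EV-siYAP1, 9.628 in EV-siCII, 8.627 in EV-siNC and 10.41 in control, and at 101.5 to 114.3 CPM in the donors.

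IGFBP3, which binds insulin-like growth factors, had a mean under the floor, with 116 counts in EV-siYAP1 and 225 in EV-siNC (log2 ratio -0.91, interval -1.26 to -0.59). SLC39A10, a zinc importer gene, was at 31.78 CPM in EV-siYAP1, 18.07 in EV-siCII, 32.42 in EV-siNC and 8.247 in control. These genes were chosen after their values were seen.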
